A study of Mus musculus with 10 samples.

Results

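Brain endothelial cells of the embryonic cortex were described here, chosen from single-cell RNA sequencing of dissociated cortex of 10 mouse embryos at E16.5. A kept cell, with at least 1000 UMIs (unique molecular identifiers, each standing for 1 captured RNA molecule) and at most 10% mitochondrial UMIs, was taken as endothelial when at least 3 of the 7 genes Cldn5, Pecam1, Cdh5, Flt1, Kdr, Esam and Ly6c1 had a UMI and fewer than 3 of the 6 mural or meningeal genes Rgs5, Pdgfrb, Kcnj8, Col1a1, Col1a2 and Lum had one. This gave 247 endothelial cells of 65779 kept cells (0.376%), leaving 65532 other cells. The 3 groups were 3 WT embryos (Gatad2b +/+), 4 Het embryos (Gatad2b stop/+) and 3 KO embryos (Gatad2b stop/stop), all of the background C57BL/6N-A tm1Brd. The stop allele is the tm1a(EUCOMM)Hmgu gene trap, a cassette in an intron of Gatad2b that leaves the later exons in place, so 3′ UMIs of Gatad2b need not vanish in KO cells. It is carried by every cell, so a difference in endothelial cells cannot be told apart from a response to the other mutant cells of the embryo.

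Endothelial cells line the vessels that grow into the cortex from the perineural plexus. VEGF from the neural tissue guides their sprouting, Notch signalling sets arterial and tip cell fates, and Wnt/beta-catenin signalling turns on the blood-brain barrier, in which tight junctions seal the vessel and transporters such as Slc2a1 (glucose), Mfsd2a (lipids) and Abcb1a (drug efflux) control what enters the brain. Gatad2b is a subunit of NuRD, a chromatin complex that joins nucleosome remodelling to histone deacetylation. The comparisons address whether loss of 1 or both Gatad2b alleles went with a different share of endothelial cells or with different RNA levels in them.

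The number of endothelial cells was small and uneven. WT embryos 1 to 3 gave 37, 25 and 52 cells, Het embryos 1 to 4 gave 16, 12, 39 and 17, and KO embryos 1 to 3 gave 7, 15 and 27. Their UMIs summed to between 89673 and 723638 per embryo, against 82872641 to 123737385 UMIs over all kept cells. KO embryo 1, with fewer than 10 cells, was left out of the tests of genes, so the KO group there had 2 embryos. The names of the deposited libraries carry the prefix GA429 for the WT embryos and Het embryo 4, and GA422 for Het embryos 1 to 3 and the KO embryos. What the prefix stands for was not given in the sources used here. Prefix and genotype cannot be told apart between KO and WT, so KO was also compared with Het within the GA422 prefix. Of the barcodes, 496 were kept in more than 1 library, and none was an endothelial cell in 2 of them.

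The chosen cells were of 2 kinds by their marker levels. In 176 of the 247 cells the 7 endothelial genes of the rule had at least as many UMIs as 12 neuronal genes (Stmn2, Tubb3, Neurod6 and others), and in 71 cells the neuronal genes had more. The mixture followed the number of endothelial genes detected. Cells with all 7 (87 cells) had a median of 96.5 endothelial and 3.43 neuronal marker UMIs per 10000. Cells with only 3 (48 cells), the lowest number inside the rule, had 11.97 and 98.7. Cells with 2 (136 cells), just outside it, had 2.24 and 104, close to the 116 neuronal marker UMIs per 10000 of cells with none.

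Het embryo 3 stood apart. It held 28 of the 71 cells with more neuronal UMIs, out of its own 39 endothelial cells, where the other embryos held 0 to 18. The genes of the rule summed to 3193 CPM (counts per 1000000 UMIs) in its endothelial cells, against 6336 to 8238 in the other embryos, and the 12 neuronal genes to 8729 CPM against 272 to 4361. Results below are therefore given for all 247 cells and, where it bears on them, for the 176 cells without an excess of neuronal UMIs, a split added after the data were seen. The source of their neuronal UMIs was not tested. A set share of the cells with the highest Scrublet scores, 4.12% to 6.48% of the kept cells of an embryo, was marked as likely doublets. These held 32 of the 247 cells. Scrublet's own threshold marked 0.0128% to 2.53% of the kept cells of an embryo.

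**Figure D1:**
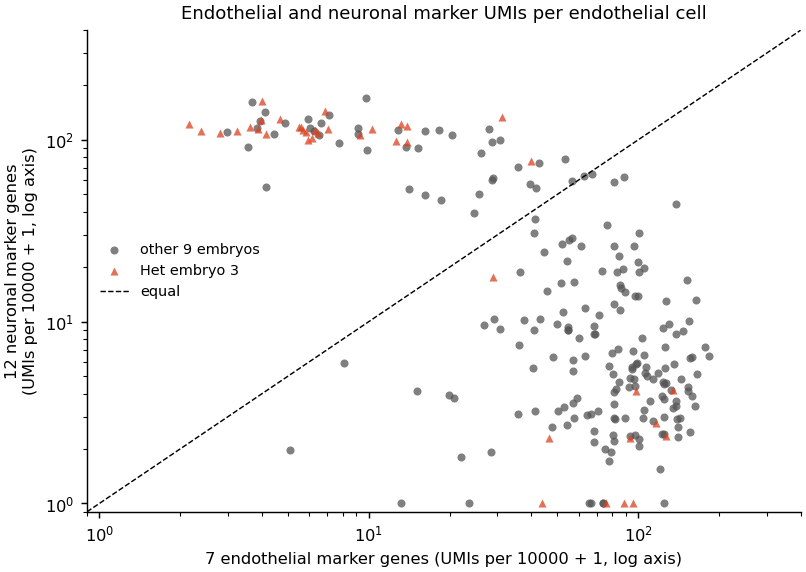
Each point is 1 of the 247 endothelial cells, placed by the UMIs per 10000 (plus 1, log axes) of the 7 endothelial genes of the rule and of 12 neuronal genes, with Het embryo 3 as red triangles. The 71 cells with more neuronal than endothelial UMIs lie above the dashed line of equal UMIs, and 28 of them come from Het embryo 3.

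Red blood cell RNA also varied between the embryos' endothelial cells. Hemoglobin and other erythroid genes summed to 1720, 143 and 20382 CPM in WT embryos 1 to 3, 101066, 130028, 3360 and 2496 CPM in Het embryos 1 to 4, and 190369, 28538 and 75329 CPM in KO embryos 1 to 3, against 6123 to 22109 CPM in other cells. Every KO embryo and Het embryos 1 and 2 lay above every WT embryo. In the 176 cells without an excess of neuronal UMIs this no longer held, with KO embryo 2 at 28538 CPM and WT embryo 3 at 34919 CPM. Without the 3 cells of over 100000 UMIs as well, KO embryos 1 and 3 had 0 and 29019 CPM, so that all 3 KO embryos lay below WT embryo 3. Their part in the differences between genotypes was not tested beyond leaving out cells with blood markers. Of the cells, 45 of the 247 cells held at least 3 erythroid markers, 25 of them in Het embryo 3. Over 100000 UMIs were found in 3 cells (the largest 172220), of which 1 made up 64.6% of the endothelial UMIs of KO embryo 1 and the other 2 made up 43.5% of those of KO embryo 3. Leukocyte RNA went the other way. Markers of microglia and other leukocytes summed to 0, 1182 and 550 CPM in endothelial cells of WT embryos 1 to 3 and to between 0 and 73.1 CPM in the Het and KO embryos, against 35.8 to 65.6 CPM in other cells, and their part in the genotype comparisons was not tested. These markers reached 3 or more in 4 cells, those of megakaryocytes in 2, those of mural and meningeal cells outside the rule in 7, and those of choroid plexus or lymphatic endothelium in 0 cells. Choroid plexus RNA was nonetheless uneven. Its markers summed to 1818 CPM in other cells of WT embryo 1 and 110 CPM in those of WT embryo 2, against 0.302 to 3.59 CPM in the other embryos, and to 52.8 and 5.51 CPM in the endothelial cells of these 2 embryos, against 0 to 2.76 CPM. Its part in the shares and levels was not tested.

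The label was checked against genes that the rule did not use, as a description. All 34 listed endothelial genes outside the rule had a higher mean CPM in endothelial cells than in other cells, and 32 were over 10-fold higher, against 8.56% of all 16358 genes with a UMI in endothelial cells. Their median ratio was 100-fold. Of 12 neuronal genes none was higher. Markers of blood cells did not all lie low. Of 6 megakaryocyte and platelet markers 5 were over 10-fold higher, with a median ratio of 32.2. Their sum was highest in WT embryo 3, at 247 CPM against 3.08 CPM in other cells. Of 13 leukocyte markers 8 were higher, 3 of them over 10-fold. All 6 erythroid genes with a UMI were higher, 0 of them over 10-fold. Of 9 mural and meningeal markers outside the rule with a UMI, 5 were higher. Of 5 lymphatic markers 4 were lower in endothelial cells than in other cells, Prox1 (7.78 against 26.7 CPM), Reln (4.81 against 86.9 CPM), Pdpn (4.28 against 6.22 CPM) and Lyve1 (0.172 against 0.321 CPM, 1 UMI), and Ccl21a was higher, at 0.338 against 0.012 CPM, with a UMI in 2 endothelial cells. These levels are means over the 9 embryos with at least 10 endothelial cells. Since the libraries count the 3′ ends of transcripts, CPM values were not divided by transcript length.

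The 10 genes outside the rule with the largest ratio to other cells, among those at 100 CPM or more, were Abcb1a, 8430408G22Rik, AU021092, Vwf, Icam2, Adgrl4, Rassf9, Ctla2a, Cd34 and Tek. Abcb1a, the P-glycoprotein efflux pump of the barrier, stood at 106 ± 30.5 CPM (SD, n = 9 embryos) in endothelial cells and 0.703 CPM in other cells, a ratio of 151. Vwf, the von Willebrand clotting factor, had 171 ± 70.5 CPM against 1.21 CPM. Tek, the angiopoietin receptor Tie2, had 121 ± 40.7 CPM against 0.974 CPM. Cd34, a sialomucin of endothelial and blood progenitor surfaces, had 494 ± 131 CPM against 3.98 CPM. A UMI of Cd34 was found in 174 of 247 endothelial cells (70.4%) and in 406 of 65532 other cells (0.620%), at median depths of 12188 and 13879 UMIs.

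Promoters of Adgrl4 and Cd34, and of Cldn5, a gene of the rule that marks the cells by choice, are shown. ETS factors, which recognise a GGAA core, are known regulators of endothelial genes. The sequences are from RefSeq on GRCm38.p6, run from 250 bases before to 50 bases after the transcription start, and are written 5′ to 3′ on the gene's strand, with the letters AGGAAG, or CTTCCT for the other strand, in capitals.
Cldn5: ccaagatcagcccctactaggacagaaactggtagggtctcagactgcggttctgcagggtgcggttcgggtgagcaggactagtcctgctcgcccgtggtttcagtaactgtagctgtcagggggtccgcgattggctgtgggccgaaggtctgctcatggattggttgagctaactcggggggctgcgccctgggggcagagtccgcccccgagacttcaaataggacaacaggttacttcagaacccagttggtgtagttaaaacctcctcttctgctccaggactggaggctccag
Adgrl4: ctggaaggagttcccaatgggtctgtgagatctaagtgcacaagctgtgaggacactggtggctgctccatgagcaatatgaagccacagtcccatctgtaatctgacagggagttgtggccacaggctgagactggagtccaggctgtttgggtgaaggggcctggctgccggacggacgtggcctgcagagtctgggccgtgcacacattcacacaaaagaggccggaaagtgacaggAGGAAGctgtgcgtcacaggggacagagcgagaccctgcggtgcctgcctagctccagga
Cd34: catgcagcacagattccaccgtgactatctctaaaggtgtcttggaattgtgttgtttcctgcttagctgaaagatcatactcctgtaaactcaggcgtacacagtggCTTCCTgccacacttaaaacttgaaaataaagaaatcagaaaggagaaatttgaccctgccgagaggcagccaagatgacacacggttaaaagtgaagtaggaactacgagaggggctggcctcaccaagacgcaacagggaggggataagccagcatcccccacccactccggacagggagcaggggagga
Cldn5, the main claudin of brain endothelial tight junctions (chr16:18776597-18776896, + strand), holds no match. Adgrl4, an adhesion receptor of vessels (chr3:151437632-151437931, + strand), holds 1 as read, and Cd34 (chr1:194938571-194938870, + strand) 1 on the other strand. Of the 34 listed endothelial genes outside the rule, 17 have a promoter in the table, and 13 of these 17 (76.5%) have at least 1 promoter with a match, against 10383 of all 27025 genes (38.4%). Of 28 barrier transport genes 22 have one, 9 of them with a match (40.9%). A match of these letters is a description and not evidence of binding.

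Barrier transporters were present in the cells of every embryo. The list of barrier transport also holds barrier genes that are not transporters, such as Itm2a, Spock2 and Ly6e. Slc2a1, the glucose transporter, had 953 CPM (475 to 1382 over the 9 embryos) against 13.4 CPM in other cells. Mfsd2a, which carries lipids and holds back transcytosis, had 466 CPM (158 to 675) against 9.02 CPM. Bsg, the chaperone of the monocarboxylate transporters, had 4588 ± 1380 CPM, Itm2a 1169 ± 333 CPM, Spock2 1053 ± 339 CPM and Slc3a2, the heavy chain of amino acid transporters, 964 ± 261 CPM. Of 28 genes of barrier transport 27 were higher in endothelial cells than in other cells and 21 more than 10-fold. The exception was Lrp1, at 33.3 CPM against 88.3 CPM. The lowest of the 9 embryos for Slc2a1, Mfsd2a, Bsg, Itm2a, Spock2 and Slc3a2 was Het embryo 3.

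Of 20 junction and permeability genes with a UMI, 16 were higher in endothelial than in other cells and 12 more than 10-fold, with a median ratio of 15.8. Ocln, a tight junction protein, had 61.6 CPM against 0.884 CPM, Tjp1 (the scaffold ZO-1) 389 ± 139 CPM against 27.8 CPM and Lsr, of tricellular junctions, 169 ± 54.2 CPM against 2.23 CPM. Cldn1 had 0 UMIs in endothelial cells and Cldn3 had 22 in all. Plvap, a diaphragm protein of leaky vessels, had 10.6 CPM against 1.04 CPM, with 41 UMIs in all. Caveolar Cav1 had 228 ± 64.6 CPM against 4.01 CPM.

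Wnt target and effector genes were all 21 above their level in other cells, with a median ratio of 19.3. Lef1, the transcription factor that binds beta-catenin, had 152 ± 58.2 CPM against 7.83 CPM, Foxq1 315 ± 152 CPM against 5.66 CPM and Nkd1, a feedback inhibitor, 187 ± 85.7 CPM against 9.69 CPM. Among genes of VEGF signalling and sprouting, Plxnd1, a semaphorin receptor, had 231 ± 112 CPM against 10.5 CPM and Pdgfb, the tip cell signal that recruits pericytes, 217 ± 67.0 CPM against 2.96 CPM, whereas the receptor Nrp1 had 282 ± 69.9 CPM in endothelial cells and 232 CPM in other cells. Vegfa, the ligand, had 6.999 CPM in endothelial cells and 29.0 CPM in other cells.

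Arterial and venous genes were both found. Gja4, an arterial connexin, had 159 ± 136 CPM against 1.96 CPM, with values from 0 CPM in KO embryo 2 to 457 CPM in Het embryo 4. Sox17, an arterial transcription factor, had 149 ± 73.6 CPM against 1.32 CPM, and Dll4, a Notch ligand of tip and arterial cells, 68.4 CPM against 0.848 CPM. Gja5 had 1 UMI in all. Of the venous genes, Slc38a5 had 463 ± 198 CPM against 4.41 CPM and Aplnr, the apelin receptor, 124 ± 54.5 CPM against 1.25 CPM. Basement membrane genes were high, with Sparc at 2388 ± 606 CPM against 40.1 CPM, Col4a1 at 1394 ± 430 CPM against 33.5 CPM and Col4a2 at 906 ± 268 CPM against 18.7 CPM, and all 21 genes of the list lay above other cells.

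**Figure D2:**
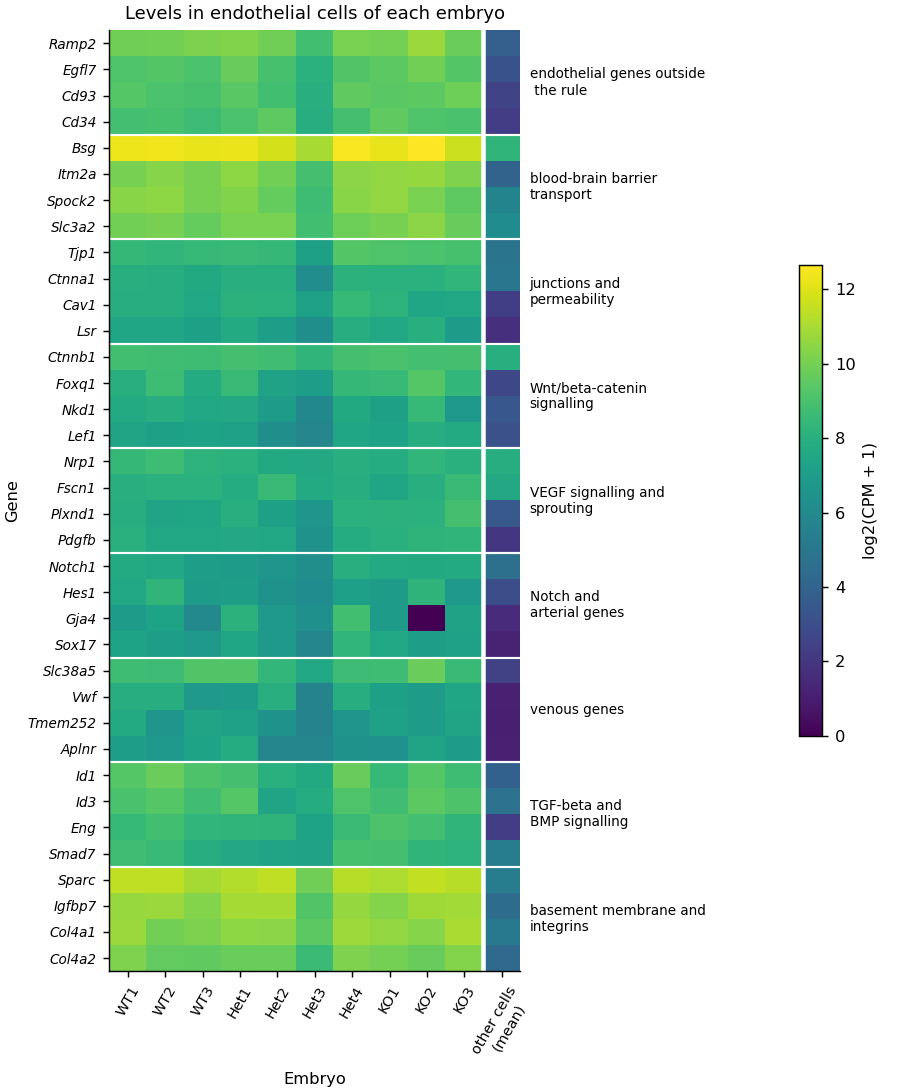
Levels, as log2(CPM + 1), of the 4 genes with the highest mean in each of 9 gene lists (rows), in the endothelial cells of each embryo (columns) and, in the last column, as the mean of other cells, with brighter colours for higher levels. The column of Het embryo 3 is darker than its neighbours in most rows, and KO embryo 2 has 0 CPM of Gja4.

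Taken over all chosen endothelial cells, cycling genes lay near their level in other cells. Of 22 mitosis genes 9 were higher in endothelial than in other cells, with a median ratio of 0.967, and of 20 S phase genes 13 were higher, with a median ratio of 1.11. Top2a, needed to separate chromosomes, ranged over the 9 embryos from 8.29 CPM in KO embryo 3 to 197 CPM in WT embryo 1, and had 0 UMIs in KO embryo 1. Its UMIs numbered 108, 45 and 79 in WT embryos 1 to 3, 23, 2, 37 and 7 in Het embryos 1 to 4, and 0, 32 and 6 in KO embryos 1 to 3. The mitosis genes summed to 952 and 897 CPM in WT embryos 1 and 3, against 611 and 580 CPM in other cells. Without cells with more neuronal than endothelial UMIs, these sums fell to 223 and 353 CPM. The mitosis sum fell in no other embryo. The part of those cells in the Top2a UMIs was not tested.

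NuRD subunits, like most genes, differed between endothelial and other cells of the same embryo. Of 15 subunits 13 passed a p of 0.05 adjusted over all 7151 genes outside the rule in a two-sided exact sign-flip test over 9 embryos (smallest p this design allows 0.00391), 9 lower and 4 higher in endothelial cells. Of all 7151 genes 4733 passed the same test (66.2%), 37.4% lower and 28.8% higher. Since most genes differ between the chosen cells and the rest, nothing particular to NuRD is read from its count, and the values below describe the subunits. Differences are on the log2(CPM + 1) scale.

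Chd5, a remodelling ATPase of neurons, had 20.0 ± 15.6 CPM in endothelial and 68.2 ± 12.7 CPM in other cells (difference -2.30 ± 1.54, lower in 9 of 9 embryos, exact test, p adjusted over all genes = 0.00861). Chd3, a second ATPase, had 271 ± 111 against 622 ± 53.2 CPM (-1.31 ± 0.63, 9 of 9). Hdac2, a histone deacetylase, had 145 ± 43.9 against 302 ± 18.4 CPM (-1.11 ± 0.50, 9 of 9). Cdk2ap1 (-0.84 ± 0.51), Mta1 (-0.79 ± 0.57), Mbd3 (-0.49 ± 0.39) and Chd4 (-0.37 ± 0.39) were lower in 9 of 9 embryos, and Rbbp4 (-0.36 ± 0.23) in 8. Gatad2b itself was lower in 9 of 9, by 0.72 ± 0.40.

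The higher subunits were Mbd2, a methyl-CpG binding protein, at 78.8 ± 17.8 CPM against 30.1 ± 2.43 CPM (1.34 ± 0.26, higher in 9 of 9), Hdac1 at 76.5 ± 28.3 against 39.8 ± 5.79 CPM (0.86 ± 0.45, 9 of 9), Rbbp7 at 112 ± 22.5 against 76.1 ± 2.57 CPM (0.52 ± 0.31, 9 of 9) and Mta2 at 59.9 ± 19.3 against 40.7 ± 1.86 CPM (0.48 ± 0.43, 8 of 9, exact test, adjusted p = 0.0312). Gatad2a, the paralog of Gatad2b, was higher in 7 of 9 embryos, by 0.34 ± 0.55 (exact test, adjusted p = 0.136), and Mta3 in 6 of 9 (exact test, adjusted p = 0.122). So Hdac1 and Hdac2, and Mbd2 and Mbd3, lay on opposite sides. In the 176 cells without an excess of neuronal UMIs the differences of Chd5 (-4.66), Chd3 (-2.003), Hdac2 (-1.69), Hdac1 (1.12) and Mbd2 (1.63) were larger in size, and Gatad2a was higher in 8 of 9 embryos by 0.60 ± 0.46 (exact test, p adjusted over all genes = 0.0187).

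**Figure D3:**
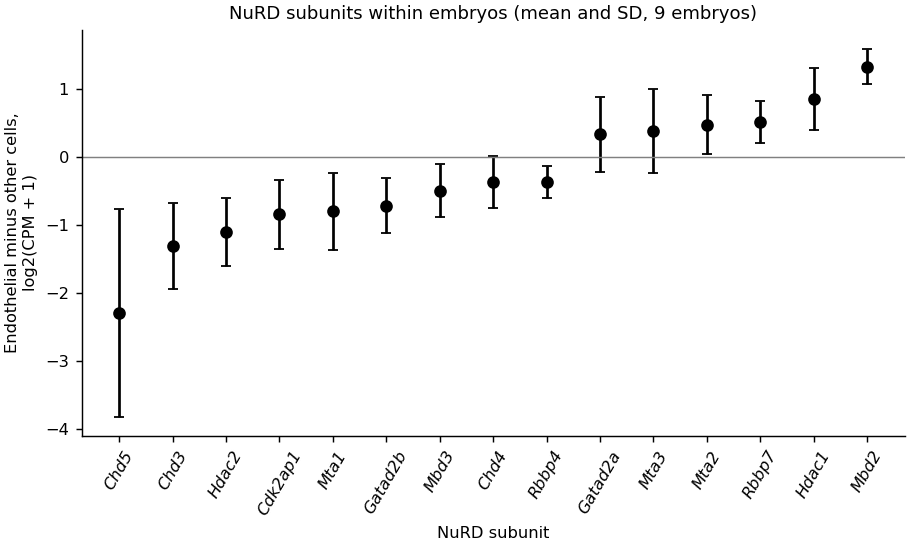
Difference of each NuRD subunit between endothelial and other cells of the same embryo, on the log2(CPM + 1) scale, as the mean over 9 embryos with the SD between embryos as bars. Chd5 lies lowest at -2.30 and Mbd2 highest at 1.34.

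The targeted gene was read in every embryo. Gatad2b (chr3:90293178-90363407, + strand, GRCm38) had 106, 66.1 and 111 CPM in endothelial cells of WT embryos 1 to 3, 55.6, 33.5, 74.7 and 40.3 CPM in Het embryos 1 to 4, and 54.7, 33.99 and 40.1 CPM in KO embryos 1 to 3. These values rest on 3 to 72 UMIs per embryo. The Het and WT values overlapped only at Het embryo 3 and WT embryo 2, and every KO value lay below WT. In the 176 cells KO embryo 1 (59.8 CPM) lay above WT embryo 2 (58.9 CPM), and the other 2 KO embryos, at 33.99 and 41.7 CPM, lay below WT. In other cells the groups did not overlap, at 132 to 142 CPM (WT), 88.2 to 96.7 CPM (Het) and 49.5 to 58.3 CPM (KO).

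In endothelial cells the log2 fold change of Gatad2b was -0.66 (SE 0.31) in Het against WT and -1.18 (SE 0.39) in KO against WT, and neither passed over all genes (adjusted p = 0.999 and 0.377, edgeR's quasi-likelihood test). The value of Het against WT turned to 0.23 when each endothelial cell was thinned to at most 5000 UMIs. In other cells the same fits gave -0.55 and -1.29, both past the threshold (adjusted p = 0.00134 and 3.68e-06). The difference of the effect between endothelial and other cells was -0.10 (SE 0.31) for Het and 0.11 (SE 0.38) for KO, also not past it.

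Endothelial cells made up 0.457%, 0.349% and 0.666% of kept cells in WT embryos 1 to 3, 0.274%, 0.195%, 0.695% and 0.215% in Het embryos 1 to 4, and 0.119%, 0.291% and 0.437% in KO embryos 1 to 3. The 95% exact (Clopper-Pearson) intervals, which cover counting error only, ran from 0.0480% to 0.246% for KO embryo 1 and from 0.495% to 0.949% for Het embryo 3. The groups overlapped. The means were 0.491% ± 0.161 (SD, n = 3) in WT, 0.345% ± 0.236 (n = 4) in Het and 0.283% ± 0.159 (n = 3) in KO.

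The difference of Het from WT was -0.146 percentage points (two-sided exact permutation test, p = 0.4, adjusted over 3 comparisons 0.6), that of KO from WT -0.208 (p = 0.2, adjusted 0.6) and that of KO from Het -0.105 within the GA422 prefix (p = 0.7, adjusted 0.7). The smallest p these exact tests allow is 0.0571 for Het against WT and 0.1 for the other 2, so none could pass 0.05. With at most 5% mitochondrial UMIs the difference of Het from WT was -0.0315 percentage points (means 0.267% and 0.299%, exact permutation test, p = 0.857). The median mitochondrial share of other cells was 4.31% to 4.65% in the embryos of the GA422 prefix and 3.6% to 3.97% in the WT embryos and Het embryo 4, with no overlap, and its part in the shares was not tested. Without KO embryo 1 or WT embryo 3 the difference of KO from WT was -0.126 or -0.120. Fewer surviving cells of a type after dissociation and fewer cells in the tissue cannot be told apart.

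The Het shares turned on Het embryo 3. Leaving it out gave a difference from WT of -0.263 percentage points (exact permutation test, p = 0.1, the smallest possible), and leaving out WT embryo 3 gave -0.0583. Without the 71 cells with more neuronal UMIs its share was 0.196%, beside 0.240%, 0.179% and 0.189% in the other Het embryos, and all 4 lay below the 0.333%, 0.293% and 0.436% of WT (means 0.201% ± 0.0267 and 0.354% ± 0.0733). The exact permutation p was then 0.0571, the smallest this design allows (adjusted 0.171). The Het and WT embryos were also separate without endothelial cells with blood markers, and when cells with at least 3 erythroid markers were left out of both the endothelial cells and the total (which removes nearly the same endothelial cells, 25 of them in Het embryo 3), and they overlapped under the other choices of cells. With at least 6 of the 7 markers Het embryo 1 (0.257%) lay above WT embryos 1 (0.247%) and 2 (0.223%), and with cells thinned to 5000 UMIs Het embryos 1 (0.265%) and 3 (0.428%) lay above WT embryo 2 (0.218%). Without the 71 cells the KO embryos, at 0.102%, 0.291% and 0.356%, still overlapped both Het and WT. In that set KO lay 0.0452 percentage points above Het within the prefix (exact permutation test, p = 0.6), the opposite direction.

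**Figure D4:**
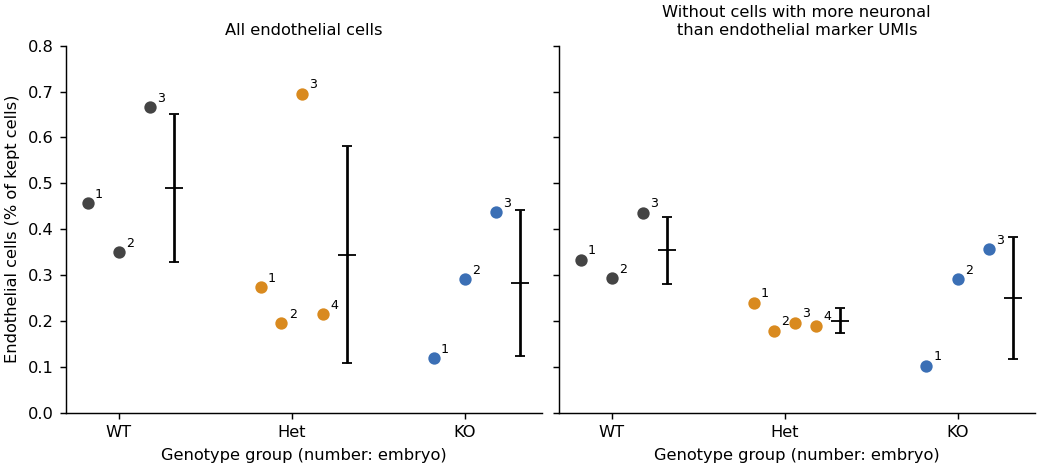
Endothelial cells as a percentage of kept cells, 1 point per embryo (numbered), with the mean and SD of each genotype group as bars beside them. On the left, with all 247 cells, Het embryo 3 is at 0.695% and the groups overlap. On the right, without the 71 cells with more neuronal than endothelial marker UMIs, the 4 Het embryos lie between 0.179% and 0.240%, below the 3 WT embryos.

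Endothelial UMIs in the other cells also varied between embryos, as a description with no test. At least 1 of the 7 endothelial genes had a UMI in 5.36%, 5.66% and 6.47% of the other cells of WT embryos 1 to 3, in 3.64%, 3.63%, 6.06% and 3.51% of those of Het embryos 1 to 4, and in 3.50%, 3.53% and 3.56% of those of KO embryos 1 to 3. Het embryo 3 lay inside the range of WT, and the other Het embryos and the KO embryos lay below it. These other cells include those left out by the limit on mural genes, and the source of the UMIs and their part in the shares were not tested.

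The rule's limit on mural genes left out 159 further cells with at least 3 endothelial genes. These numbered 9 to 27 per embryo. With the limit dropped the mean shares were 0.716% in WT, 0.646% in Het and 0.482% in KO, with Het embryo 3 at 1.18%. The difference of Het from WT was then -0.0692 percentage points (exact permutation test, p = 0.8) and that of KO from WT -0.234 (p = 0.2).

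No gene passed an adjusted p of 0.05 with an absolute log2 fold change above 0.25 in endothelial cells in any of the 3 comparisons, called in the sense used from here on. For Het against WT, 0 of 7151 genes outside the rule were called (0%), and 158 (2.21%) had an unadjusted p under 0.05 in edgeR. For KO against WT, 0 of 7151 were called (0%) and 680 (9.51%) had such a p. For KO against Het within the prefix, 0 of 6094 were called (0%) and 406 (6.66%) had such a p. Without the cells marked as doublets, which were 5 of 7 in KO embryo 1 and 12 of 52 in WT embryo 3, 305 of 6615 genes had an unadjusted p under 0.05 in KO against WT and 122 of 5562 in KO against Het, with 0 called. DESeq2 called 0, 11 and 5 genes in the 3 comparisons, each of them lower in KO. The 11 were Map2, Cntn2, Plxna2, Frmd4a, Gria2, Chl1, Grin2b, Nsg2, Thra, Bcl11b and Celf4. The 5 were Map2, Bcl11a, Sox11, Bcl11b and Celf4. Map2, Gria2, Nsg2, Bcl11b and Sox11 among them are neuronal genes. The part of neuronal RNA in these calls was not tested. With the replicate number as a block, edgeR called 0, 159 and 326 genes, in fits that left few embryos to measure the spread. In the other cells of the same embryos the same test called 290, 3830 and 909 genes. Those sums held far more cells, so the counts are not a comparison of the effects. Without Het embryo 3, 117 genes were called in endothelial cells in KO against WT, 13 higher and 104 lower.

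The 5 genes with the smallest p in Het against WT were all lower in Het, and for each the groups did not overlap, as for 3.97% of all genes. Slc16a1 (chr3:104638668-104658462, + strand, GRCm38), the monocarboxylate transporter MCT1 of lactate and ketone bodies, had 40.0, 68.9 and 66.5 CPM in WT embryos 1 to 3, 12.1, 0, 14.9 and 17.9 CPM in Het embryos 1 to 4, and 32.8, 5.67 and 13.8 CPM in KO embryos 1 to 3. These rest on 22, 25 and 43 UMIs in WT, 5, 0, 9 and 4 in Het, and 6, 1 and 10 in KO. Every Het and KO value lay below every WT value. Among the embryos of the fit, Slc16a1 passed the filter on low counts only through WT, where it was high. Its lower level in Het and KO is therefore a description only.

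Slc16a1 differed by -2.01 on the log2 scale (SE 0.44) in Het and by -2.15 (SE 0.54) in KO against WT, and neither passed (adjusted p = 0.999 and 0.366, edgeR). In other cells its log2 fold changes were -0.08 and -0.18 (adjusted p = 0.612 and 0.220). The difference between endothelial and other cells was -1.93 (SE 0.48) in Het, not past the threshold. A UMI of Slc16a1 was found in 47 of 247 endothelial cells (19.0%) and in 8547 of 65532 other cells (13.04%). For the 176 cells they were -2.18 and -2.40 (adjusted p = 0.185 and 0.0916, edgeR).

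The other 4 were Notum, a secreted Wnt inhibitor and Wnt target (-2.51, SE 0.67), Rell1 (-1.09, SE 0.31), Hps3, of lysosome-related organelles (-1.77, SE 0.52), and Mgat4a, a glycosyltransferase (-1.25, SE 0.38). Notum had 15, 8 and 18 UMIs in WT embryos 1 to 3, 2, 1, 1 and 1 in Het embryos 1 to 4, and 3, 1 and 6 in KO embryos 1 to 3. In CPM the WT embryos ranged from 22.05 to 27.8, the Het embryos from 1.66 to 11.2 and the KO embryos from 5.67 to 16.4. Notum also passed the filter on low counts only through WT, so its lower level in Het is a description only.

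In KO against WT the 5 genes with the smallest p were Plxna2 (-1.79, SE 0.32), Map2 (-2.92, SE 0.61), Gria2 (-3.38, SE 0.72), Hs6st2 and Frmd4a (-2.29, SE 0.49), each with an adjusted p of 0.366 in edgeR. The groups did not overlap for any of the 5, as for 33% of all genes with 2 KO embryos. Map2, a dendritic microtubule protein, and Gria2, a glutamate receptor subunit, are neuronal genes, and all 5 were lower in endothelial than in other cells (ratios 0.242 to 0.389). Hs6st2 had 39, 9 and 39 UMIs in WT and 0 in each KO embryo. The 12 neuronal markers moved with them. They summed to 3954, 2031 and 4361 CPM in WT embryos 1 to 3, 2003, 2297, 8729 and 2294 in Het embryos 1 to 4, and 958, 272 and 1313 in KO embryos 1 to 3, and all 3 KO values lay below WT. Their part in these genes was not tested.

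Among the 176 cells, 3 of 5788 genes (0.0518%) were called in KO against WT, Mapt (-3.71, SE 0.55, edgeR adjusted p = 0.0150), Tubb3 (-3.27, SE 0.56) and Thra (-2.10, SE 0.37), all lower. Mapt and Tubb3 are microtubule genes of neurons. Tubb3 is also among the 12 neuronal genes whose UMIs chose the 176 cells, so its call there cannot serve as a test. Mapt is not among the 12, but a cut on neuronal UMIs bears on other neuronal genes too. Its call is therefore a description only. The neuronal markers still summed to less in KO there, at 203, 272 and 221 CPM against 1226, 393 and 1149 CPM in WT. These are the genes that chose the cells, so their sums are a description only. Without the 3 cells of over 100000 UMIs as well, 0 of 5853 genes were called (0%) and 360 had an unadjusted p under 0.05.

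In KO against Het within the prefix the smallest p were those of Ets2, an ETS transcription factor (1.87, SE 0.35), Rapgef5, an activator of Rap GTPases (1.69, SE 0.35), Map2 (-3.01, SE 0.63), Ppp1r14c (-3.76, SE 0.82) and Sox11 (-2.38, SE 0.53), with an adjusted p of 0.669 each in edgeR. The groups did not overlap for any of them, as for 20.7% of all genes. Ets2 had 50.7, 44.6 and 49.8 CPM in Het embryos 1 to 3, 164, 159 and 206 CPM in KO embryos 1 to 3, and 129, 102 and 71.1 CPM in WT. Rapgef5 had 114, 66.9 and 89.7 CPM in Het and 181, 261 and 354 CPM in KO. Sox11, a neuronal factor, turned its direction in the 176 cells, to 0.65. It is among the 12 neuronal genes whose UMIs chose those cells, so this value is a description only. The 2 other comparisons share the WT embryos, and this one shares the KO and Het embryos with them.

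Gene lists were described by their counts and median log2 fold change. In Het against WT the median was -0.02 for the 34 endothelial genes outside the rule, -0.27 for 26 barrier transport genes, of which 21 were negative, and 0.01 over all genes. Of 18 dissociation stress genes, immediate early genes and others known to rise when tissue is dissociated, 17 were positive, with a median of 0.48, and 4 had an unadjusted p under 0.05, against 1.13% of all genes in that direction. These were Fos, Jund, Zfp36 and Junb. None was called. The list summed to 6045, 5983 and 4489 CPM in WT, 7169, 4751, 5973 and 9379 CPM in Het and 4593, 6759 and 6578 CPM in KO, and the groups overlapped. In other cells it summed to less and the groups did not overlap, at 3721 to 3843 CPM in WT, 3945 to 4500 CPM in Het and 4618 to 4788 CPM in KO. These sums split by library prefix as well. WT and Het embryo 4 (GA429) had 3721 to 3945 CPM, and Het embryos 1 to 3 and KO (GA422) had 4386 to 4788 CPM. The parts of prefix and genotype were not tested.

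With the 71 cells left out of Het against WT, 9 of 18 stress genes had an unadjusted p under 0.05, all higher, against 2.45% of all genes in that direction, with Fos at 1.96 (SE 0.46) and Zfp36 at 1.76 (SE 0.43). All 14 mitosis genes were positive there, with a median of 1.29, and 5 had such a p, among them Mki67 (2.48, SE 0.62). In all 247 cells 7 of 15 mitosis genes were positive, with a median of -0.03. The list summed, in the 176 cells, to 223, 864 and 353 CPM in WT embryos 1 to 3 and 823, 299.5, 1352 and 1312 CPM in Het embryos 1 to 4, and in all 247 cells to 952, 727.5 and 897 CPM in WT and 713, 279, 428.6 and 1089 CPM in Het. The groups overlapped in both sets of cells. Radial glia and progenitor markers, of another cell type that divides, were summed as well. They summed to 1821, 1421 and 1508 CPM in WT and 2220, 1888, 1881 and 4880 CPM in Het in the 176 cells, where every Het embryo lay above every WT embryo, and to 1311 to 1530 CPM in WT and 1233 to 4154 CPM in Het in all 247 cells, where the groups overlapped. Embryo by embryo, these markers and the mitosis genes followed no shared order in the 176 cells. Het embryos 2 and 3, at 1888 and 1881 CPM of the markers, had 299.5 and 1352 CPM of mitosis genes. Het embryo 4, at 4880 CPM, had 1312 CPM. The part of the progenitor markers in the mitosis values was not tested. Of 21 genes of VEGF signalling and sprouting, 6 had such a p and were lower, against 3.44% of all genes in that direction. These were Apln, Kcne3, Adm, Angpt2 (-1.89, SE 0.64), Nrp1 and Esm1 (-2.34, SE 1.09). Dll4 (-0.32, SE 0.29) and Pdgfb (-0.05, SE 0.20) had no such p, and Plxnd1 was positive (0.22, SE 0.25). None of these genes was called, and the median of the VEGF list was -0.05, with 9 of 21 positive.

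In KO against WT all 18 basement membrane genes were positive, with a median of 0.46, and so were 30 of 34 endothelial genes (0.34) and 17 of 21 genes of VEGF signalling and sprouting (0.49), against a median of -0.03 over all genes. Of the latter, 4 genes (Plxnd1, Trp53i11, Cxcr4 and Mcam) had an unadjusted p under 0.05, against 2.68% of all genes in that direction. The neuronal list had a median of -1.71, with 4 of 12 genes at an unadjusted p under 0.05, against 6.82% of all genes in that direction. With the 71 cells left out the medians of the 3 lists were 0.18, 0.02 and 0.26, with 13 of 18, 19 of 34 and 13 of 21 positive. Without those cells and the 3 of over 100000 UMIs they were -0.13, 0.01 and -0.08.

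For barrier transport genes the median in KO against WT depended on the cells taken. In all 247 cells it was -0.06, with 14 of 26 negative, beside -0.03 over all genes. With the 71 cells left out it was -0.38, beside 0.0025 over all genes, with 21 of 25 negative and 10 of 25 at an unadjusted p under 0.05, against 4.23% of all genes in that direction. None was called. The 10 were Slc16a1, Slc6a6 (-1.39, SE 0.31), Slc22a8 (-1.16, SE 0.29), Spock2, Abcc4, Slc7a5, Ly6e, Slco1c1, Lrp8 and Abcb1a. In all 247 cells Slc16a1 passed the filter on low counts only through WT. Slc6a6 carries taurine, Slc22a8 organic anions and Slc7a5 large neutral amino acids, whereas Spock2 and Ly6e are not transporters. In these 176 cells the list summed to 21992, 20055 and 20480 CPM in WT embryos 1 to 3, 18049, 13439, 21264 and 19860 CPM in Het embryos 1 to 4, and 18800, 18493 and 12823 CPM in KO embryos 1 to 3. The KO values lay below WT there, and Het overlapped both. In all 247 cells the sums were 16413, 17385 and 14808 CPM in WT, 15800, 11810, 6482 and 16902 CPM in Het and 17325, 18493 and 11699 CPM in KO. There KO overlapped WT, and KO embryo 2 lay above every WT embryo.

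These values were smaller in size without the 3 largest cells. Without cells of over 100000 UMIs, KO embryo 1 stood at 26051 CPM, above WT, and KO embryo 3 at 18241 CPM, the median was -0.15, and 6 of 25 had an unadjusted p under 0.05, against 3.74% of all genes in that direction. These 6 were Slc16a1 (-1.93, SE 0.52), Slc6a6 (-0.98, SE 0.29), Slc22a8 (-0.83, SE 0.29), Slc7a5, Abcc4 and Ly6e, none called.

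**Figure D5:**
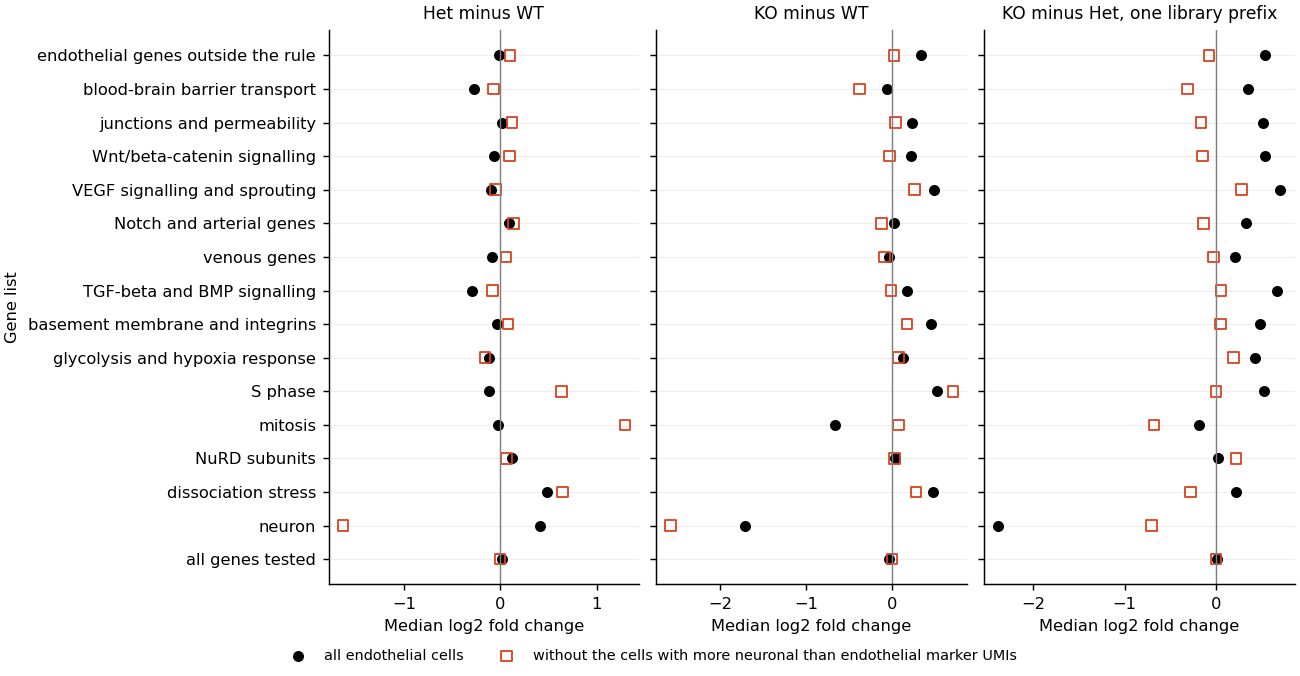
Median log2 fold change of each gene list (rows) in the 3 comparisons, for all 247 endothelial cells (black points) and for the 176 without an excess of neuronal UMIs (red squares), beside the neuronal markers and all genes tested. The neuronal list lies at -1.71 in KO against WT, and the barrier transport list moves from -0.06 to -0.38 there.

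Within the GA422 prefix, 32 of 34 endothelial genes were positive in KO against Het (median 0.53) and 18 of 18 basement membrane genes (0.48), with the neuronal list at -2.39 and 5 of its 10 genes at an unadjusted p under 0.05, against 4.51% of all genes in that direction. Of 20 genes of VEGF signalling and sprouting, 5 had such a p and were higher (Esm1, Cxcr4, Kcne3, Plxnd1 and Unc5b), against 2.15%. With the 71 cells left out this list summed to 3122 and 4312 CPM in KO embryos 2 and 3. Het embryos 1 to 3 had 2681, 2982 and 3716 CPM. Without the 3 cells of over 100000 UMIs as well, KO embryo 3 had 3145 CPM, inside the range of Het. With the 71 cells left out the endothelial and basement membrane medians were -0.07 and 0.05, with 10 of 32 and 9 of 16 positive. Of 22 barrier transport genes, 5 then had an unadjusted p under 0.05 and were lower (Abcb1a, Slc6a6, Spock2, Ly6e and Tfrc), against 2.13% of all genes. This list then summed to 18049, 13439 and 21264 CPM in Het embryos 1 to 3 and 18493 and 12823 CPM in KO embryos 2 and 3. Without the 3 cells of over 100000 UMIs as well, KO embryo 3 had 18241 CPM, and KO embryos 2 and 3 lay inside the range of Het. Het embryo 3 enters this comparison.

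NuRD subunits were compared between genotypes too. None of the 15 was called in any comparison, and their median was 0.12 in Het and 0.04 in KO against WT. Gatad2a had a log2 fold change of -0.57 (SE 0.31) in Het and 0.30 (SE 0.35) in KO against WT, and the latter turned to -0.048 without KO embryo 3.

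The effect of genotype was not shown to differ between endothelial and other cells for any gene, with 0 of 7151 genes called (0%) for Het and 0 of 7151 (0%) for KO in edgeR, and 93 (1.3%) and 581 (8.12%) at an unadjusted p under 0.05. Without Het embryo 3, 122 genes were called for KO. The smallest adjusted p, 0.0826, was shared by Kcnj2, a potassium channel, and Plxna2. Kcnj2 had a log2 fold change of 0.88 in endothelial and -2.87 in other cells in KO against WT. In the 176 cells 9 genes were called for KO, with Kcnj2 (3.59, SE 0.51, edgeR adjusted p = 0.0176) and Man1a (2.43, SE 0.45) higher in endothelial cells relative to other cells, and Bcl11b, Gpr85, Nsg2, Gadd45g, Mapt, Ifitm2 and Neurod6 lower. Bcl11b, Nsg2, Mapt and Neurod6 are genes of cortical neurons. Neurod6 is also among the 12 neuronal genes whose UMIs chose the 176 cells, so its call there cannot serve as a test. The cut on neuronal UMIs bears on Bcl11b, Nsg2 and Mapt too, so their calls are a description only. These names were chosen after their values were seen.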

How the data were processed

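A single 3′ library per embryo (10X Genomics, version 3 chemistry) was made from papain-dissociated cortex without a sort. The authors aligned the reads to mm10. Their processing notes name Cell Ranger 6.0.2, while the methods name another release. The deposited matrices hold raw UMI counts per gene and barcode, which the authors did not normalize. Reads shared between near-identical genes may have been split or dropped.

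The endothelial cells and the gene lists were chosen with earlier results of these data known. The 13 genes of the rule were left out of the counts of tested genes. UMIs were summed per embryo over endothelial cells (at least 10 cells) and over all other kept cells. All groups were fitted together with edgeR 4.0.16 (filterByExpr, TMM, quasi-likelihood test, Benjamini-Hochberg adjustment) in R 4.3.3 with limma 3.58.1, and DESeq2 1.42.0 was an alternative. A library prefix, a replicate block and sets of cells were other alternatives. Levels are CPM of the summed counts without TMM, so their ratios differ slightly from the fitted fold changes, and an embryo with 1 very large cell is weighted to that cell. Shares and NuRD levels were tested with exact permutation and sign-flip tests in scipy 1.17.1. Cells were scored by Scrublet in scanpy 1.11.5. The highest scores were marked, 4.12% to 6.48% of the kept cells of an embryo, the share expected from their number. Cells so marked stayed in. The tests were checked on simulated counts.

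Genes named are the NuRD subunits, the genes of the rule, the 4 highest genes of each list, the 5 smallest p where fewer than 5 were called, the 10 largest ratios to other cells and genes used as examples, chosen after their values were seen. Embryos are the replicates. The authors describe the Het and WT embryos as littermates. Nothing names the litter of each embryo or says that they came from separate litters, so p-values measure the spread between these embryos.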

Additional observations from a re-analysis of the deposited data

Results flagged for a closer look

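Values of the 4 Het embryos were checked for 1 embryo far from the other 3, by Dixon's gap test at the 95% level. Chance alone marks about 1 in 20 such groups, and 115 quantities were checked.

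Het embryo 3 was far from the other Het embryos in its share of endothelial cells (0.695% against 0.195% to 0.274%), in the neuronal marker level of its endothelial cells (8729 CPM against 2003 to 2297 CPM) and in the number of endothelial cells with more neuronal than endothelial marker UMIs (28 against 1 to 2). It also had 53 other cells with exactly 2 endothelial markers, against 8 to 14 (counted with no limit on mural genes), and 6.06% of its other cells held at least 1, against 3.51% to 3.64%. The share and the counts by endothelial markers are drawn from the genes of the rule, so they describe how the cells were chosen.

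In its endothelial cells Ctnna1 had 71.4 CPM (others 244 to 278 CPM), Mcm3 9.97 CPM (others 44.6 to 50.7 CPM), Cdk2ap1 125 CPM (others 55.8 to 62.7 CPM) and Sox11 2663 CPM (others 878 to 1126 CPM). Cdh5 (133 CPM, others 424 to 475 CPM) and Col1a2 (3.32 CPM, others 0 CPM) were marked too. Both are genes of the rule that chose the cells, so their values are a description only. With the other Het embryos at 0 CPM, any UMI of Col1a2 would have been marked. Het embryo 4 stood apart in 8430408G22Rik (211 CPM, others 22.3 to 48.2 CPM) and Smad7 (497 CPM, others 156 to 198 CPM), and Het embryo 2 in Fscn1 (379 CPM, others 209 to 233 CPM). Het embryo 2 had 12 endothelial cells and Het embryo 4 had 17, with median depths of 5522 and 3733 UMIs.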

How the results depend on the processing

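The numbers of genes called moved from 0. For Het against WT they were 82 with no filter on low counts, 28 with at least 20 endothelial cells per embryo and 1 (Fgfbp3) with the library prefix as a covariate. For KO against WT they were 393 with no filter, 11 with DESeq2, 9 with only the 2 groups, 1 (Fabp7) with at least 20 cells, 1 (Thra) without cells with blood markers, 29 with at least 6 markers and 3 without cells with more neuronal UMIs. For KO against Het they were 257 with no filter and 5 with DESeq2. With at least 20 cells or at least 6 markers, Het and KO had 1 embryo each, assumed to vary like WT, so these counts compare 1 embryo with WT. For the difference between endothelial and other cells they were 15 (Het) and 368 (KO) with no filter, and 9 (KO) without cells with more neuronal UMIs. Leaving out 1 embryo gave 0 in every fit but 2. Without Het embryo 3, KO against WT had 117 calls (range 0 to 117) and its difference from other cells 122 (range 0 to 122).

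Replicate numbers are shared by the groups, but same-numbered embryos correlated from -0.0433 to 0.31 in their deviations, so the numbers were not taken as pairs. The pairs of replicates 2 and 3, which hold the KO embryos of the gene tests, correlated from 0.121 to 0.31. Those of replicate 1 correlated from -0.0433 to 0.0767. With the replicate block 159 genes were called in KO against WT and 326 in KO against Het, and 0 in Het against WT.

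The share in KO against Het turned to 0.0431 percentage points higher without cells with blood markers, 0.0344 with erythroid-marker cells out of both the endothelial cells and the total, 0.0158 with at least 6 markers, 0.0452 without cells with more neuronal UMIs and 0.0482 without Het embryo 3. With at least 2 endothelial markers it was -0.319 percentage points (exact permutation test, p = 0.8), larger in size than with the rule. Leaving out 1 embryo gave -0.263 to -0.0583 for Het against WT, -0.285 to -0.120 for KO against WT and -0.202 to 0.0482 for KO against Het.

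Gatad2b in Het against WT turned to 0.23 with each cell thinned to at most 5000 UMIs, and Gatad2a in KO against WT to -0.048 without KO embryo 3 (range over embryos left out -0.048 to 0.50). Cdk2ap1 turned to -0.0645 in KO against WT with the prefix as a covariate and, in KO against Het, to 0.028 without cells with blood markers, 0.41 without cells with more neuronal UMIs, 0.37 without the very large cells as well, and 0.096 without Het embryo 3 (range -0.65 to 0.096). Sox11 in KO against Het turned to 0.65 without cells with more neuronal UMIs, a set that its own UMIs helped to choose. It was 0.62 without the very large cells as well. With p-values adjusted over the subunits, 13 to 14 of 15 passed under the 12 alternatives run (pseudocount, doublets, neuronal UMIs, embryos left out). The cause of these changes was not tested. KO against Het was not run with at least 20 cells or 6 markers, where too few embryos remained. With 7 to 52 cells per embryo, genes at a few UMIs set no limit on a change.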
